A study of Mus musculus with 4 samples.

Results

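The C1q-like and cerebellin genes code for small secreted proteins of the C1q family that sit in the synaptic cleft and link the 2 sides of a synapse. The members described here are C1ql1, C1ql2, C1ql3, Cbln1, Cbln2 and Cbln4, 6 of the 32285 genes in the deposited tables. They were listed by gene symbol, without a cutoff on measured values, but with earlier results of these data known. All 6 had UMIs (unique molecular identifiers, the count of captured RNA molecules) in every library. They were measured in nuclei from the brains, without cerebellum, of 10-week-old wild-type C57BL/6 mice, counted with a droplet kit that reads the 3′ ends of RNAs. One pair of libraries came from mice killed by cervical dislocation ("post-mortem") and one from mice under deep isoflurane anaesthesia whose brain was removed by craniotomy ("in vivo"). Within each pair, the nuclei of one library were used fresh after extraction (unfixed) and those of the other were held in methanol at a final 80% and -20 °C for 30 minutes. Tissue was frozen on dry ice for 10 minutes in all 4 groups, at most 50 mg went into an extraction, and no group carried a transgene or a drug other than the anaesthetic.

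Cerebellins bind receptors on the presynaptic membrane and, on the postsynaptic one, receptors such as Grid1, and so help to form and hold synapses. Cbln1 is best known from cerebellar granule cells and is also made in the thalamus, Cbln2 is made in cortex and other forebrain regions, and Cbln4 is known from inhibitory interneurons and also binds Dcc and Neo1. C1q-like proteins bind the adhesion receptor Adgrb3 (BAI3). C1ql1 is known from climbing fibres of the inferior olive and from oligodendrocyte precursors, the dividing glia that give rise to myelinating cells, C1ql2 from dentate granule cells and C1ql3 from excitatory neurons of cortex and amygdala.

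Each group was 1 library, so no difference below has a replicate check and no p-value is given. Ratios compare 2 libraries, and their 95% exact intervals, like those of levels and shares, cover counting error only. After quality filters and removal of predicted doublets, the libraries held 12471 (post-mortem unfixed), 9818 (post-mortem methanol), 15235 (in vivo unfixed) and 6822 nuclei (in vivo methanol), with median UMIs per nucleus of 3785, 6293.5, 3035 and 7830. Values below follow this order of libraries unless named. Harvest cannot be told apart from the animal and the piece of tissue, and the labels do not say whether the unfixed and methanol nuclei of a pair came from 1 brain. The absence of cerebellum could be checked on its granule-cell markers: Gabra6, Fat2, Barhl1 and the cerebellin Cbln3 together gave 145 UMIs over all libraries, and the highest level of any of them in a library was 0.292 CPM (UMIs of a gene per 1e6 UMIs). C1ql4, the remaining C1q-like gene, had 1 UMI. Between 61 and 210 cell barcodes were shared by 2 libraries, at most 1.45% of the smaller library.

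Positions are those of the mm10 build (GRCm38) in the GENCODE M21 annotation. C1ql1 is at chr11:102939264-102946688 on the minus strand, C1ql2 at chr1:120340582-120343174 on the plus strand, and C1ql3 at chr2:13003457-13011806 on the minus strand. Cbln1 is at chr8:87468405-87472609 on the minus strand, Cbln2 at chr18:86711110-86718283 on the plus strand, and Cbln4 at chr2:172036233-172043466 on the minus strand. All are annotated as protein-coding. Cbln1 overlaps Gm2694, a lincRNA on the other strand that had 1362 UMIs against 188 for Cbln1. How strand was treated in counting is not given in the sources used here, so reads of this pair may not be separable.

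Nuclei were sorted into types by marker genes, none of which was a member. A type needs 3 detected markers of 8 and a lead over every other list, and neuron classes were split further by lists of 5 markers. Names such as "Vip interneurons" below mean nuclei that passed such a gate. No gate was passed by 30.7%, 17.8%, 37.0% and 18.6% of nuclei, more in both unfixed libraries, whose median depths were lower. A gate needs detected markers, and the part of depth in the shares of types was not tested. Levels are given for the 21 types with at least 20 nuclei in every library, and 9 smaller types, dentate granule cells among them, are left out of the order. Genes that the gates did not use were high where they should be: Sox10, a regulator of the oligodendrocyte lineage, averaged 431 CPM in oligodendrocyte precursors and 0.468 CPM in cortical excitatory neurons, and Mobp, a myelin gene, averaged 1015 CPM in oligodendrocytes and 3.05 CPM in precursors. By mean level over the libraries, C1ql1 and C1ql2 were both highest in oligodendrocyte precursors and Cbln2 and Cbln4 both in Vip interneurons, while C1ql3 and Cbln1 each led in another type, as the heat map of levels by type shows.

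**Figure D1:**
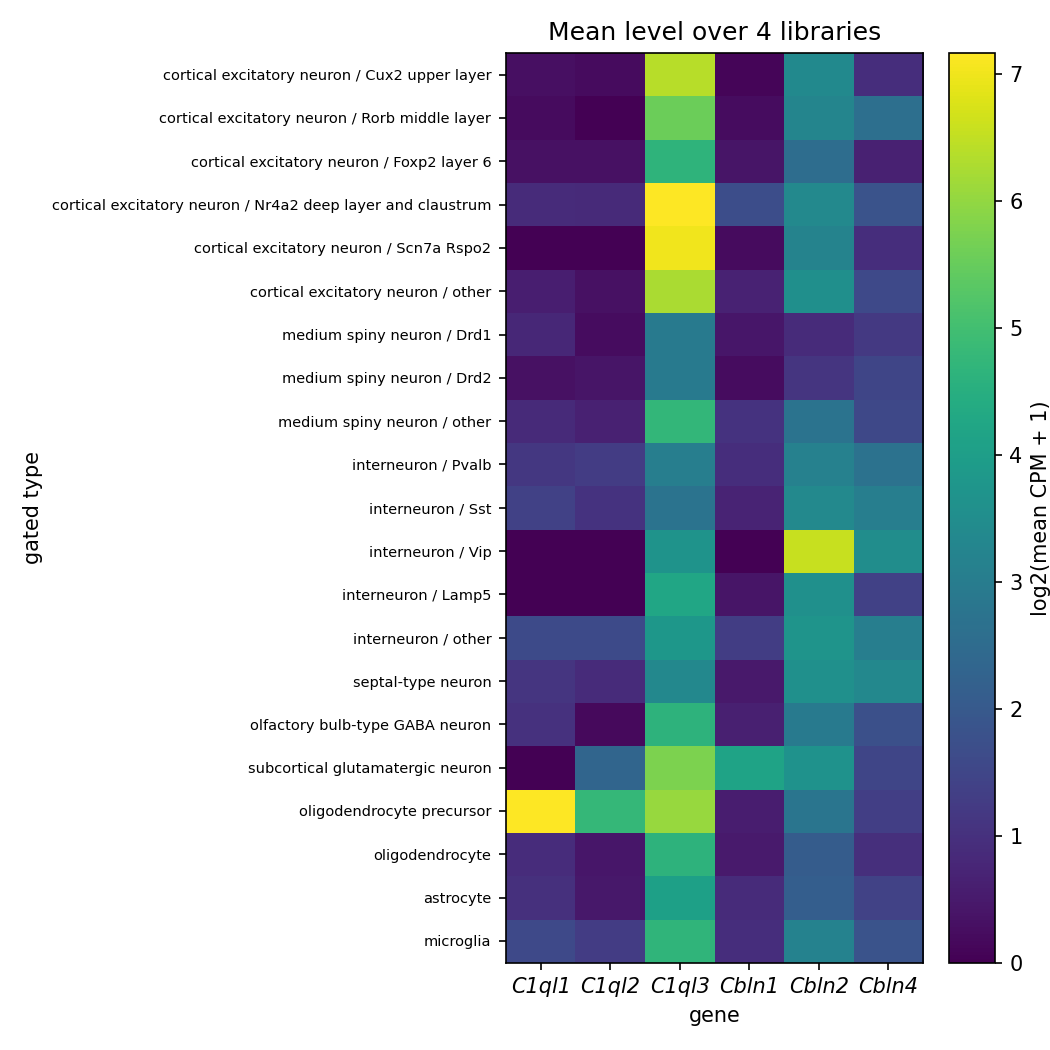
Mean level of each gene (columns) in each gated type (rows), as log2 of the mean CPM of the 4 libraries plus 1. C1ql1 and C1ql2 are brightest in oligodendrocyte precursors, C1ql3 in the Nr4a2 and Scn7a Rspo2 excitatory types, Cbln1 in subcortical glutamatergic neurons and Cbln2 in Vip interneurons, while Cbln4 is spread over interneuron types and septal-type neurons.

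C1ql1 was concentrated in oligodendrocyte precursors in every library. Its level there was 150.02, 163, 111 and 139 CPM, against 0.887, 0, 2.04 and 0.587 CPM in mature oligodendrocytes. No other type had a mean above 2.06 CPM, the value of the interneurons that matched no subtype. Precursors made up between 1.01% and 1.93% of the nuclei and held 224 of the 479 C1ql1 UMIs, 46.8%, while 140 UMIs lay in nuclei that passed no gate. Within libraries, the precursor level was higher than that of all other nuclei together by log2 6.93 (interval 6.33 to 7.51), 7.57 (7.03 to 8.11), 6.30 (5.72 to 6.85) and 7.05 (6.54 to 7.57). When a gate lead of 1 marker sufficed for glial lists too, the mean precursor level was 75.9 instead of 141 CPM, and precursors still led.

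At least 1 C1ql1 UMI was found in 28.6% (interval 20.9 to 37.3), 33.1% (25.8 to 41.1), 18.8% (13.8 to 24.7) and 40.9% (32.4 to 49.8) of precursors. The shares were ordered as the median depths of the precursors, which were 1999.5, 2710.5, 1699 and 2992.5 UMIs. Oligodendrocytes, at median depths of 1227, 1313, 941.5 and 1410 UMIs, had shares of at most 0.224%. With each nucleus thinned to 1000 UMIs, the precursor shares were 15.6%, 17.1%, 13.2% and 16.7%, and their intervals overlapped. In the 71 nuclei with 2 or more C1ql1 UMIs, the gate markers furthest above the remaining nuclei were Pdgfra, the PDGF receptor of precursors, at 17.6 times, and Cspg4, the NG2 proteoglycan, at 14.8 times. Of these 71 nuclei, 39 were in the precursor gate and 20 in none.

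The level of C1ql2 was also highest in precursors, but most of its UMIs lay elsewhere. Precursors held 44 of its 216 UMIs, 20.4%, interneurons 69, 31.9%, and nuclei that passed no gate 58. Its level in precursors was 17.9, 60.9, 0 and 27.4 CPM, from 5, 25, 0 and 14 UMIs, and the 0 UMIs of the in vivo unfixed library allow up to 9.31 CPM by the exact interval (7.57 CPM at 3 counts). Oligodendrocytes gave 0 or 1 UMI of C1ql2 per library. Precursors exceeded all other nuclei by log2 4.60 (2.78 to 5.82) in the post-mortem unfixed library, 5.37 (4.66 to 6.00) in the post-mortem methanol one and 6.51 (5.38 to 7.59) in the in vivo methanol one. Subcortical glutamatergic neurons came next at a mean of 4.04 CPM, from 4 UMIs over all libraries, which does not separate them from the 2.03 CPM of unassigned interneurons. Of the 26 nuclei with 2 or more C1ql2 UMIs, 4 were precursors, 6 unassigned interneurons, 3 Pvalb interneurons and 8 in no gate. The 5 gate markers furthest above the remaining nuclei in them were Dcn (5.47 times), Vtn (4.70), Fgfr3 (4.15), Pvalb (3.96) and Gpr6 (3.54), none of them from the precursor list. Dentate granule cells, the neurons C1ql2 is best known from, are not represented: at most 1 nucleus per library passed their gate.

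C1ql3 was also counted in precursors, at 28.6, 77.9, 60.6 and 94.0 CPM, but oligodendrocytes had 20.4, 6.02, 46.4 and 21.7 CPM. Precursors exceeded oligodendrocytes by log2 3.67 (2.77 to 4.68) and 2.11 (1.46 to 2.77) in the methanol libraries. In the unfixed libraries the excess was 0.56 (-0.81 to 1.58) and 0.41 (-0.33 to 1.05), and both intervals include 0. C1ql3 in precursors was thus above the oligodendrocyte level beyond counting error in the methanol libraries only. Astrocytes had 8.24, 1.47, 42.2 and 11.1 CPM and microglia 16.0, 2.04, 44.0 and 36.6 CPM. In every library the counting intervals of both overlapped that of oligodendrocytes. Free RNA can add UMIs in droplet data, and its part in these levels was not tested. The 8 markers of cortical excitatory neurons summed to 118, 17.04, 187 and 133 CPM in precursors. In the excitatory neurons themselves they summed to 1136 to 1289.6 CPM. Emx1 was at 0 in precursors of 3 of the 4 libraries. The interneuron list was the highest of the other lists in precursors, at 3987 to 5666 CPM, against 5053 to 7469 CPM in interneurons. The part of these markers in the C1ql2 and C1ql3 levels was not tested.

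Co-detection in single precursors was counted without a test. In the in vivo methanol library 54 of 132 precursors had C1ql1, 36 had C1ql3 and 15 had both, while 13 had C1ql2 and 8 of those had C1ql1 too. In the post-mortem methanol library 51 of 154 had C1ql1, 22 had C1ql2 and 8 had both. A receptor of these ligands was counted in the same type: Adgrb3, the C1q-like receptor, averaged 2067 CPM in precursors and 3036 CPM in cortical excitatory neurons. Over all nuclei Adgrb3 averaged 2793 CPM, so it was not particular to precursors.

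**Figure D2:**
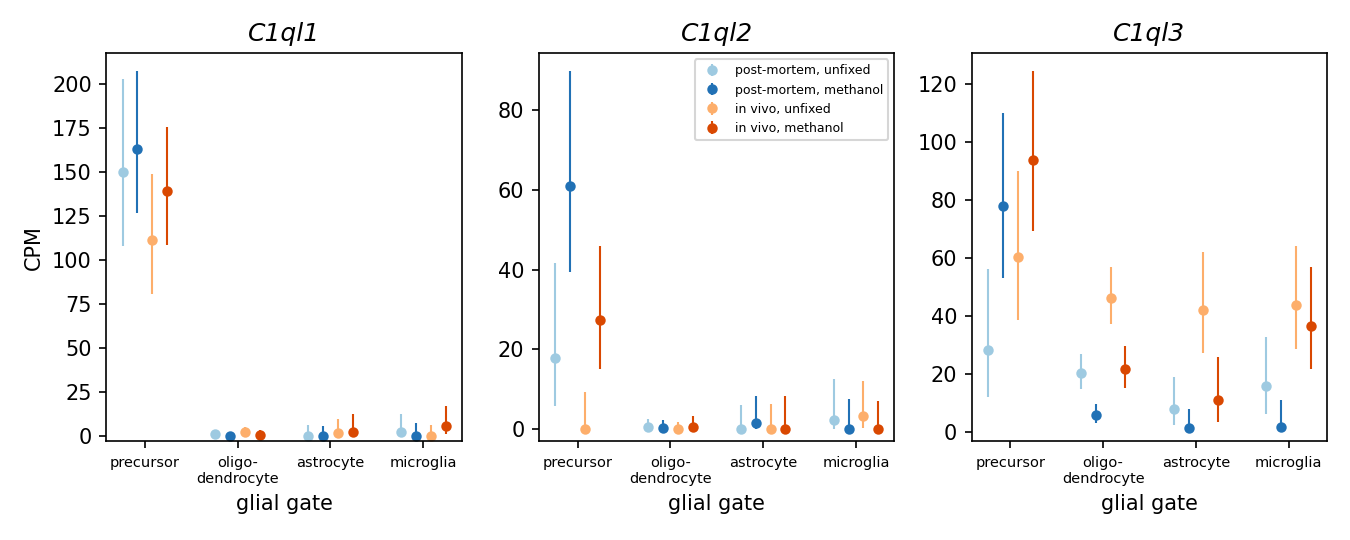
Levels (CPM, linear axis) of C1ql1, C1ql2 and C1ql3 in 4 glial gates, each point a library and each bar its 95% exact Poisson interval. C1ql1 lies between 111 and 163 CPM in precursors of all libraries and at most 5.78 CPM in the other glia, C1ql2 is at 0 in precursors of the in vivo unfixed library, and C1ql3 is found in the other glia too, highest in the in vivo unfixed library.

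C1ql3, the member with the most UMIs (8630), had 53.5% of them in cortical excitatory neurons. Over all excitatory types its level was 29.0, 50.7, 79.8 and 111 CPM, against 6.13, 5.02, 25.0 and 15.7 CPM in medium spiny neurons, the projection neurons of the striatum. The excitatory excess over oligodendrocytes was log2 0.50 (0.06 to 0.99), 3.03 (2.34 to 3.92), 0.78 (0.47 to 1.11) and 2.34 (1.89 to 2.86), so it was small in both unfixed libraries. Interneurons had 8.26, 8.24, 19.7 and 5.66 CPM, at or below the oligodendrocyte level in all but the post-mortem methanol library. Subcortical glutamatergic neurons had 28.8, 40.3, 75.3 and 68.6 CPM, from 4, 11, 10 and 23 UMIs, so C1ql3 was not particular to cortical types. Nuclei that passed no gate held 29.0% of the C1ql3 UMIs.

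Among excitatory types the order was uneven. Nr4a2 deep-layer and claustrum neurons had 49.4, 139.97, 170.3 and 211 CPM, and Scn7a Rspo2 neurons had 61.9, 129, 139.9 and 180.04 CPM. These leaders do not differ beyond their spread over libraries. Cux2 upper-layer neurons had 40.3, 76.6, 80.9 and 133 CPM, below both of them in each library. Foxp2 layer 6 neurons were lowest, with 8.31, 10.8, 28.4 and 49.4 CPM, which in both unfixed libraries is under the oligodendrocyte level. Cux2 neurons exceeded Foxp2 neurons by log2 2.24 (1.51 to 3.12), 2.81 (2.35 to 3.34), 1.5003 (1.08 to 1.96) and 1.43 (1.21 to 1.66). Rorb middle-layer neurons split by harvest: 12.8 and 13.1 CPM post-mortem against 81.2 and 76.9 CPM in vivo. Fezf2 layer 5 neurons, with 18 nuclei in the smallest library, held 247 UMIs and are not ranked.

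**Figure D3:**
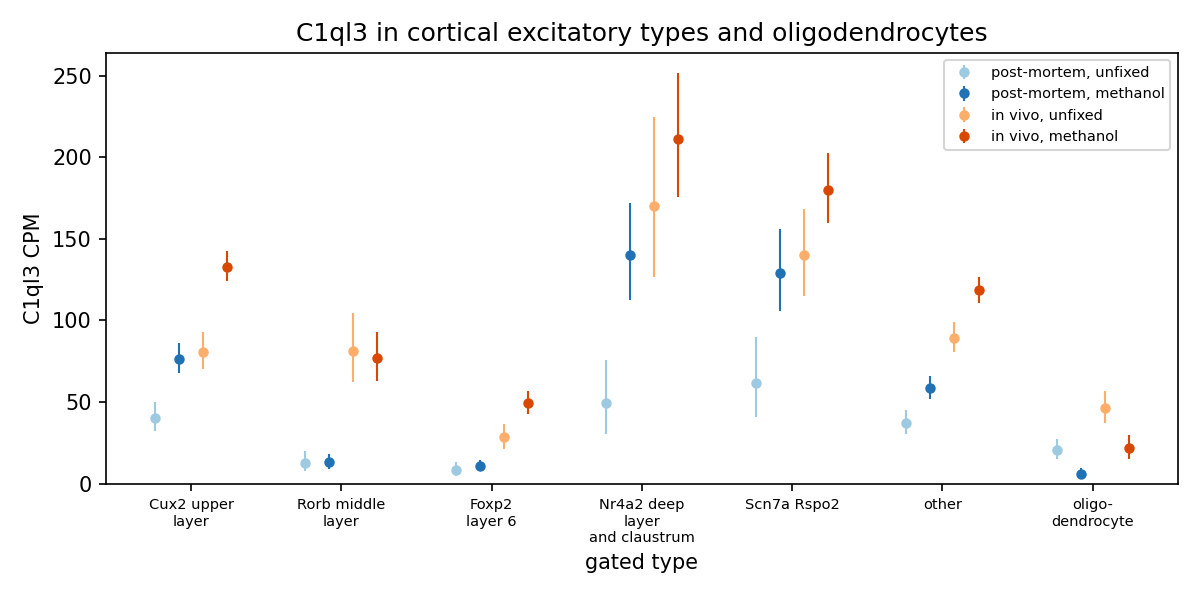
C1ql3 level (CPM, linear axis) in the cortical excitatory types and, at the right, in oligodendrocytes for comparison; points are libraries and bars 95% exact Poisson intervals. The Nr4a2 and Scn7a Rspo2 types reach 211 and 180.04 CPM in the in vivo methanol library, and the Rorb type is at 12.8 and 13.1 CPM in the post-mortem libraries and at 81.2 and 76.9 CPM in the in vivo ones.

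Cbln1 was sparse outside the cerebellum, with 46, 68, 28 and 46 UMIs. Its leading type was the subcortical glutamatergic neurons, which had 0, 33.0, 7.53 and 26.9 CPM from 0, 9, 1 and 9 UMIs, in 22 to 33 nuclei per library. In the methanol libraries these neurons exceeded all other nuclei by log2 5.26 (3.99 to 6.21) and 5.49 (4.20 to 6.51). The remaining types had means of at most 2.26 CPM and cannot be ordered at this depth. In the 14 nuclei with 2 or more Cbln1 UMIs, Lef1, a thalamic transcription factor, was 26.8 times its level in the other nuclei. Slc17a6, the vesicular glutamate transporter of subcortical neurons, was at 16.0 times. Markers from lists of other types followed: Bnc2 (15.2 times), Tmem132c (10.6) and Prox1 (7.30). Of these 14 nuclei, 3 were in the subcortical glutamatergic gate, 6 in no gate and the rest in interneuron and medium spiny gates.

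Cbln2 was highest in Vip interneurons, which inhibit other interneurons. The gate held 24, 39, 46 and 28 nuclei, and Cbln2 was at 83.2, 128, 76.5 and 90.9 CPM, from 8, 29, 11 and 19 UMIs. The other interneurons had 8.77, 10.7, 6.83 and 14.0 CPM, so that Vip nuclei were higher by log2 3.32 (1.99 to 4.29), 3.59 (2.94 to 4.15), 3.54 (2.39 to 4.45) and 2.73 (1.91 to 3.41). At least 1 Cbln2 UMI was seen in 25.0%, 41.0%, 23.9% and 35.7% of Vip nuclei, at median depths of 3766, 5287, 2843 and 6613 UMIs. Microglia, at 787 to 1062 UMIs, had 0.410% to 1.13%. The Vip nuclei held only 67 of 1874 Cbln2 UMIs, 3.58%. Below them followed a broad set from unassigned interneurons (mean 12.1 CPM) to Foxp2 neurons (4.95 CPM) whose neighbours overlap in range. That set also held microglia, at 7.97 CPM from 16 UMIs, and precursors, at 5.95 CPM from 8 UMIs. By these means, which rest on few UMIs, most neuron types in it are not set apart from microglia and precursors. In the methanol libraries all excitatory neurons had 13.3 (11.6 to 15.2) and 9.90 (8.66 to 11.3) CPM. Oligodendrocytes had 1.20 (0.25 to 3.52) and 2.35 (0.64 to 6.01) CPM there. In the unfixed libraries the intervals of excitatory neurons and oligodendrocytes overlapped. Drd1 and Drd2 medium spiny neurons were lowest, at 0.861 and 1.14 CPM, under the 3.22 CPM of oligodendrocytes. Tshz2 near-projecting neurons, too few to rank with 7 to 39 nuclei, held 28 UMIs.

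Cbln4 had no single leading type. Vip interneurons had the highest mean, 10.5 CPM, from 8 UMIs in all: 0, 8.80, 13.9 and 19.1 CPM in the 4 libraries. Next, septal-type neurons (9.26 CPM), Sst interneurons (7.41 CPM) and unassigned interneurons (7.41 CPM) lay within their ranges. Sst interneurons, known for Cbln4, had 4.08, 13.8, 3.04 and 8.74 CPM. Their excess over the other interneurons was log2 -0.45 (-2.26 to 0.74), 0.80 (0.07 to 1.44), -0.33 (-2.89 to 1.18) and 0.44 (-0.62 to 1.32), so only the post-mortem methanol library set them apart. All interneurons together had 5.82, 8.75, 4.18 and 7.02 CPM, above the 2.98, 1.24, 1.40 and 1.48 CPM of medium spiny neurons in every library.

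By the fixed measure of likeness, Pearson's r of log2(CPM + 1) over the 21 types among 11904 protein-coding genes, the genes nearest to C1ql1 were Neu4 (r = 0.97), Chst5 (0.95) and Pnlip (0.94), all highest in precursors. C1ql2 was nearest to Pkd1l1 (0.90), Mmp15 (0.90) and Pcmtd2 (0.90). C1ql3 was nearest to Bdnf (0.90), the neurotrophin gene, Frzb (0.90) and Rtn4r (0.86). For Cbln1 these were Abhd12b (0.88), Calca (0.88) and Gjc1 (0.88), for Cbln2 Pdss2 (0.90), Ap2m1 (0.84) and Magi1 (0.84), and for Cbln4 Spout1 (0.82), Ddx24 (0.80) and Tceal9 (0.79). Types share libraries, so these are descriptions. Among the members themselves C1ql1 and C1ql2 were closest (r = 0.86), followed by Cbln2 and Cbln4 (0.59), and C1ql3 and Cbln4 were furthest apart (-0.46).

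The harvest comparison sets in vivo against post-mortem libraries, once among unfixed and once among methanol nuclei. C1ql3 was higher and C1ql2 lower in vivo, each by more than 2-fold in both pairs, and the other 4 members did not pass 2-fold in both. Of the 9790 genes with a mean of at least 10 CPM, 0.337% were at least 2-fold higher in vivo in both pairs and 0.123% lower; with no minimum, which the low members need, these shares were 1.36% and 2.52% of 26931 genes, and with a mean of at least 0.5 CPM they were 0.613% and 0.652% of 17626. The members' counts, 1 of 6 in each direction, are too small to read against these shares.

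C1ql3 over all nuclei had 15.4 and 23.3 CPM in the post-mortem libraries and 50.0 and 61.6 CPM in vivo, and the libraries did not overlap by harvest. In vivo over post-mortem was log2 1.70 (1.58 to 1.81) for unfixed and 1.40 (1.32 to 1.49) for methanol nuclei. Nuclei gated as excitatory neurons made up 10.6% and 15.5% of post-mortem nuclei and 11.9% and 23.5% of in vivo nuclei. Nuclei that passed no gate made up 30.7% and 17.8% against 37.0% and 18.6%. The part of these shares in the C1ql3 ratio was not tested. With every type given the same weight the ratios were 1.44 and 0.83, so the methanol pair then missed 2-fold. Within all excitatory neurons the ratios were 1.46 (1.26 to 1.66) and 1.13 (1.02 to 1.25). Of 9146 genes with a mean of at least 10 CPM and 50 UMIs there, 1.02% were at least 2-fold higher in both pairs and 0.59% lower. The same minimum holds for the shares of genes within other types below. Rorb neurons had the largest ratios among excitatory types, 2.64 (1.91 to 3.47) and 2.54 (1.98 to 3.16), and Scn7a Rspo2 neurons the smallest in the methanol pair, 0.48 (0.15 to 0.82).

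The same direction appeared outside the excitatory neurons. Oligodendrocytes had C1ql3 ratios of 1.18 (0.66 to 1.73) and 1.82 (0.95 to 2.82), and all medium spiny neurons 2.02 (1.62 to 2.45) and 1.63 (1.20 to 2.09). The share of all genes this far apart was not computed for these types. Medium spiny nuclei of no subtype held 103 of the 127 class UMIs in the in vivo methanol library. They went from 8.02 to 31.1 CPM in the unfixed pair and from 15.8 to 49.0 CPM in the methanol pair. Drd1 neurons went from 4.95 to 16.5 and from 2.48 to 3.28 CPM. Drd2 neurons went from 4.58 to 13.9 and from 3.04 to 4.73 CPM, so both were under 2-fold in the methanol pair. Of 14 types with both pairs measured, 12 were above 0 in both and 7 were at least 2-fold higher in both. Interneurons differed from this: unfixed libraries gave 1.25 (0.84 to 1.67), methanol ones -0.53 (-1.07 to -0.04). Few genes were 2-fold apart in both pairs there, 0.091% higher and 0.0202% lower.

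C1ql2 over all nuclei had 0.894 and 1.86 CPM in the post-mortem libraries and 0.305 and 0.535 CPM in vivo, from 46, 122, 16 and 32 UMIs in the order of the libraries. In vivo over post-mortem was log2 -1.53 (-2.47 to -0.71) and -1.78 (-2.41 to -1.23). In precursors it was -1.13 (-2.21 to -0.15) in the methanol pair, and in interneurons of that pair -2.54 (-4.63 to -1.23), where 44 UMIs stood against 4. Of 5636 genes with at least 10 CPM and 50 UMIs in precursors, 1.51% were 2-fold higher in both pairs and 0.408% lower. C1ql2, with 44 UMIs in precursors, is outside that set. Its unfixed pair there had too few UMIs for a ratio, so it cannot be read against these shares. With equal weights of types the values were -2.12 and -0.91.

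Cbln4 lay in the same direction. Its level was 4.02 and 4.23 CPM in the post-mortem libraries against 1.75 and 2.27 CPM in vivo, with ratios of -1.20 (-1.57 to -0.84) and -0.89 (-1.20 to -0.59), the latter just under 2-fold. Within excitatory neurons Cbln4 differed more, at -1.76 (-3.18 to -0.62) and -2.41 (-3.45 to -1.55), from 25 and 51 UMIs post-mortem and 8 and 13 in vivo. Cbln4 was below the minimum of 10 CPM for the gene shares there, so it cannot be read against them. Within interneurons the ratios were -0.47 (-1.17 to 0.19) and -0.31 (-0.80 to 0.15), and both intervals include 0. Nuclei gated as medium spiny neurons made up 19.2% and 17.2% of post-mortem and 12.3% and 13.4% of in vivo nuclei. Those gated as interneurons made up 15.5% and 18.5% against 12.5% and 12.9%. The shares of nuclei that passed no gate differed too, and the part of all these shares in the Cbln4 ratio was not tested.

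The other members differed less over all nuclei. C1ql1 gave 0.14 (-0.25 to 0.53) and 0.24 (-0.12 to 0.61), and in precursors -0.44 (-1.08 to 0.21) and -0.23 (-0.73 to 0.27), all intervals including 0. Cbln1 gave -0.74 (-1.48 to -0.04) and -0.43 (-1.01 to 0.13). Cbln2 gave -0.56 (-0.78 to -0.34) and -0.23 (-0.40 to -0.06), and its ratios within types had both signs. In all excitatory neurons Cbln2 was at -1.09 (-1.63 to -0.58) and -0.43 (-0.70 to -0.16). In excitatory neurons of no subtype it was at -1.41 (-2.34 to -0.58) and -1.03 (-1.52 to -0.54), 2-fold lower in both pairs. The share of all genes this far apart was not computed for that subset. Septal-type neurons of the methanol pair were at -3.41 (-5.27 to -2.08), from 5 UMIs in vivo and 22 post-mortem. For unassigned interneurons, unfixed libraries gave -0.46 (-1.20 to 0.24) and methanol ones 0.84 (0.33 to 1.35).

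The 250 bases before the RefSeq start (GRCm38.p6) are shown for C1ql2 and Cbln4, which had the lowest harvest ratios of the 6 members in both pairs and have the same start in GENCODE. They run 5′ to 3′ on the gene's strand, at chr1:120340332-120340581 (plus) and chr2:172043467-172043716 (minus), and capitals mark the E-box pattern CANNTG, which basic helix-loop-helix factors bind.
C1ql2: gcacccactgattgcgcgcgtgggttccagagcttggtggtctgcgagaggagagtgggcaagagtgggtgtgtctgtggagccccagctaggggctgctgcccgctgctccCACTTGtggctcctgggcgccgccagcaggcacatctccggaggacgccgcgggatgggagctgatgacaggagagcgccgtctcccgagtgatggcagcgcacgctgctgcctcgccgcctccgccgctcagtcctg
Cbln4: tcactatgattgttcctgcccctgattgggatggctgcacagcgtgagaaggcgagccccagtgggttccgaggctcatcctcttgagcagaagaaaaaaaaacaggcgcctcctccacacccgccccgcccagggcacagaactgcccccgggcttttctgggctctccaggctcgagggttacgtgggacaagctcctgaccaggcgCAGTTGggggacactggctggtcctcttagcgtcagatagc

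Each window held 1 CANNTG match, on either strand, and 66.2% of 32851 RefSeq windows of this length held at least 1. GGGCGG, the GC box, matched 2 times in Cbln4 and not in C1ql2, against 32.7% of all windows. CCAAT matched 1 time in Cbln4 and not in C1ql2, against 33.8%. TGACGTCA, the CRE site of CREB (1.55% of windows), TGANTCA, the AP-1 site (6.75%), and TATAAA (12.4%) matched neither. Both were rich in G and C, with 68.8% in C1ql2 and 60.8% in Cbln4 against a median of 52.4%. The RefSeq promoter table also held C1ql3, whose start lies 942 bases inside the GENCODE gene, so its window is not shown. It held no entry for C1ql1, Cbln1 and Cbln2.

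**Figure D4:**
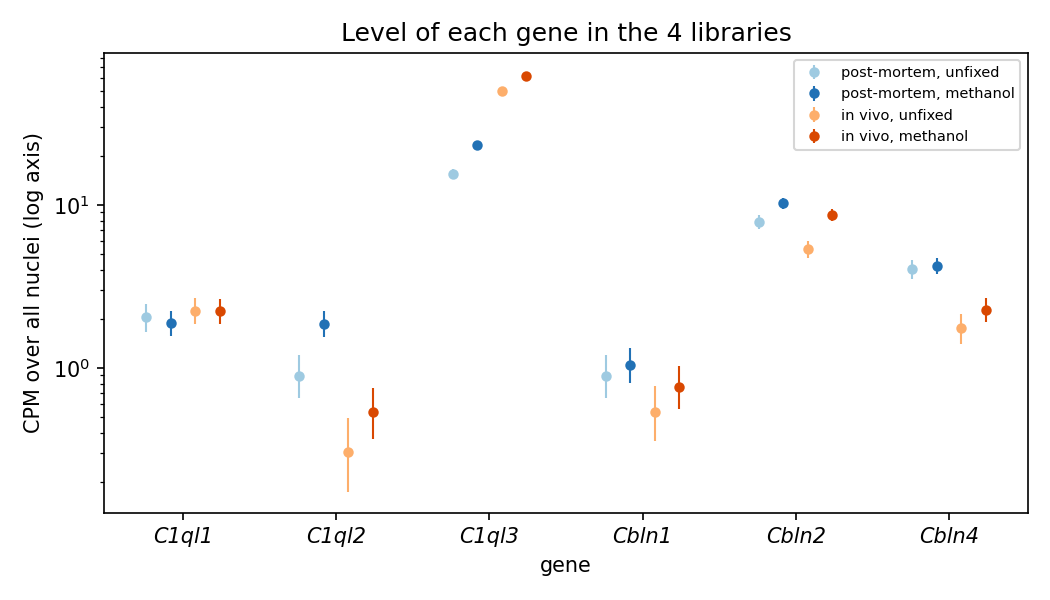
Level of each gene over all nuclei (CPM, log axis) in the 4 libraries, with 95% exact Poisson intervals as bars. C1ql3 separates by harvest, 15.4 and 23.3 CPM against 50.0 and 61.6 CPM, C1ql2 and Cbln4 are lower in both in vivo libraries, and C1ql1 lies between 1.88 and 2.25 CPM in all libraries.

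The fixation comparison sets methanol against unfixed nuclei, once post-mortem and once in vivo. No member was 2-fold apart in both pairs, where 0.296% of genes with a mean of at least 10 CPM were higher and 2.18% lower. With no minimum the shares were 1.47% and 6.84%, and with at least 0.5 CPM 0.505% and 5.42%. C1ql2 came nearest, with methanol over unfixed at log2 1.05 (0.56 to 1.58) post-mortem and 0.79 (-0.10 to 1.78) in vivo; it passed 2-fold in both pairs when nuclei under 1000 UMIs were left out and when types had equal weight. C1ql3 gave 0.59 (0.47 to 0.72) and 0.30 (0.23 to 0.37), and Cbln2 0.38 (0.20 to 0.56) and 0.71 (0.50 to 0.92). Cbln4 gave 0.07 (-0.19 to 0.34) and 0.37 (-0.02 to 0.77), Cbln1 0.21 (-0.35 to 0.79) and 0.52 (-0.18 to 1.26), and C1ql1 -0.12 (-0.51 to 0.27) and -0.02 (-0.38 to 0.35).

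C1ql3 was higher with methanol in excitatory neurons and lower in oligodendrocytes. In all excitatory neurons the C1ql3 ratio was 0.80 (0.61 to 1.00) post-mortem and 0.48 (0.37 to 0.59) in vivo. Rorb neurons were an exception, with unfixed and methanol levels of 12.8 and 13.1 CPM post-mortem and 81.2 and 76.9 CPM in vivo. In oligodendrocytes it was -1.73 (-2.71 to -0.89) and -1.08 (-1.69 to -0.53), more than 2-fold lower in both. The share of all genes this far apart was not computed for oligodendrocytes. Interneurons gave -0.01 (-0.43 to 0.43) and -1.79 (-2.31 to -1.31). With each nucleus thinned to 1000 UMIs before gating, the in vivo excitatory ratio was -0.30, the opposite direction, and the cause was not tested. Cbln2 in excitatory neurons gave 0.52 (0.17 to 0.89) and 1.18 (0.74 to 1.67). There 0.918% of genes were 2-fold higher in both pairs and 2.15% lower; in interneurons these shares were 0.354% and 1.75%, in precursors 1.17% and 1.21%.

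**Figure D5:**
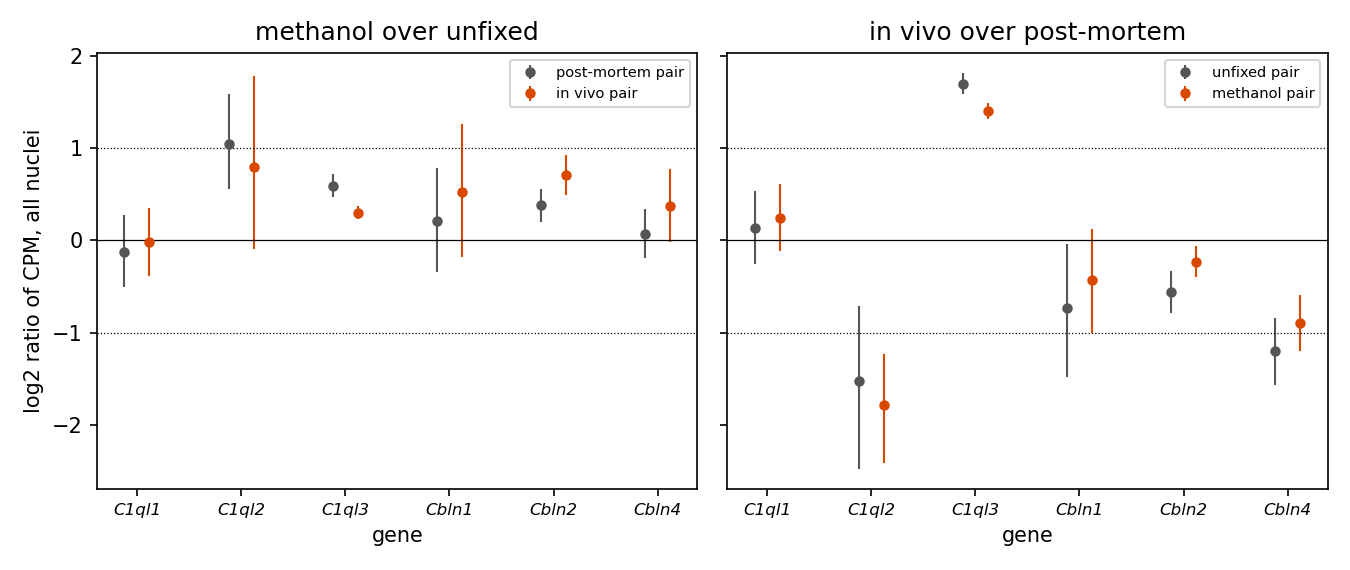
Log2 ratios of CPM over all nuclei for methanol over unfixed (left) and in vivo over post-mortem (right), one point for each pair of libraries with 95% exact intervals and dotted lines at 2-fold. C1ql3 is above 1 and C1ql2 below -1 in both harvest pairs, and no gene is beyond 1 in both fixation pairs.

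Among the 14 receptors and partner genes, listed for their binding to these ligands, none was 2-fold apart in both harvest pairs, and 1 was in both fixation pairs. That gene was Nptx1, a neuronal pentraxin that acts with C1ql3, which was higher with methanol by log2 1.12 and 1.17 over all nuclei and by 1.48 and 1.51 in excitatory neurons. In precursors, where it had 13 UMIs in all, Nptx1 was at -1.04 and -1.02. Of all genes with a mean of at least 10 CPM, 0.337% were 2-fold higher in both harvest pairs and 0.123% lower. For fixation these shares were 0.296% and 2.18%, and within excitatory neurons 0.918% were higher. A list of 14 genes is too small to read against them. The list's median ratio was 0.19 and 0.17 for fixation and 0.17 and 0.16 for harvest, where all genes of at least 10 CPM had medians of -0.03, -0.02, -0.10 and -0.09. The harvest ratios were 0.13 and 0.10 for Adgrb3, 0.28 and 0.16 for Grid1, and, for Dcc, the netrin receptor that binds Cbln4, -0.31 and -0.38, all under the 2-fold line.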

How the data were processed

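Single-nucleus RNA was counted in 4 libraries, 1 per group. The authors deposited whole-number UMI counts per gene and cell barcode, with mm10 as the genome build (submitters' processing notes). Which aligner, cell caller, annotation and strand setting they used is not given in the sources used here. Nuclei with at least 500 UMIs, at least 300 genes and at most 5% mitochondrial UMIs were kept, and doublets predicted by Scrublet (scanpy 1.11.5, expected rate 6%) were removed, between 9.03% and 14.7% of a library. Nuclei were gated by 3 or more of 8 class markers, with a lead of 1 marker for neuronal lists and 2 for the others. Subtypes needed 2 of 5 markers and a lead of 1. Counts were summed per library and type and divided by the type's total (CPM).

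Log2 ratios had 0.5 counts added. Intervals were exact Poisson for levels, exact conditional binomial for ratios and Clopper-Pearson for shares, all at 95%. Ratios within types were given where every library had 50 nuclei and the pair 20 UMIs. The named genes were the 6 members, the 14 partner genes and, for each member, the 3 genes of most similar level over types. Values of some partner genes are not reported here. The members, lists and comparisons were chosen with earlier results of these data known, and the gate thresholds were set after levels had been seen. Alternatives were doublets kept, a minimum of 1000 UMIs, every deposited barcode, TMM (edgeR 4.0.16) and median-of-ratios scaling, equal weights of types, other gates and thinning to 1000 UMIs. Total UMIs of kept nuclei ranged from 51431857 to 65523383.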

Additional observations from a re-analysis of the deposited data

Results flagged for a closer look

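C1ql3 in all interneurons had opposite directions in the 2 harvest pairs. In vivo over post-mortem was log2 1.25 among unfixed libraries and -0.53 among methanol libraries, with counting intervals of 0.84 to 1.67 and -1.07 to -0.04. The 4 levels were 8.26, 8.24, 19.7 and 5.66 CPM, so the in vivo unfixed library was the high one. In that library oligodendrocytes also had their highest C1ql3 level, 46.4 CPM. With 1 library per group the difference between the pairs was not tested.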

How the results depend on the processing

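The harvest calls (C1ql3 higher, C1ql2 lower) were kept with doublets, with a minimum of 1000 UMIs, with every deposited barcode and with both other scalings. With equal weights of gated types they went from 1 higher and 1 lower to 0 and 0, because the methanol pair fell short of 2-fold (0.83 and -0.91). The fixation comparison, with 0 members higher, had 1 (C1ql2) at a minimum of 1000 UMIs and 2 (C1ql2 and Cbln1) with equal weights; subcortical glutamatergic neurons, the leading type of Cbln1, held 19 of its UMIs. Of all genes, 33 were higher and 12 lower for harvest, and 29 and 213 for fixation, at a mean of at least 10 CPM; with no minimum these were 367 and 680, and 395 and 1841, since more genes were tested. The mean level of C1ql1 in oligodendrocyte precursors, 141 CPM, was 110.5 CPM with doublets kept, 162.6 CPM under the stricter gate and 75.9 CPM with a lead of 1 marker, where C1ql2 had 16.4 instead of 26.5 CPM; this last alternative and a lead of 2 markers for every list were chosen after seeing the data. C1ql3 in Pvalb interneurons, in vivo over post-mortem in the methanol pair, was 0.45 with doublets kept against -1.13, from 6 and 28 UMIs, and the cause was not tested. Within-type ratios with under 20 UMIs or 50 nuclei are not given: 3 at a minimum of 1000 UMIs, 68 with a lead of 2 markers, 73 under the stricter gate and 145 under thinning, of which 0, 1, 0 and 15 were opposite in sign to a 2-fold value. No level is given for Vip, Nr4a2 and subcortical glutamatergic nuclei under the stricter gate, a lead of 2 markers or thinning, where a library held under 20 of them. Without replicates, none could be left out. No paired analysis was possible because each group has 1 library and the groups share a single replicate number; the 2 pairs of each comparison are given side by side, with no test. Depth limits Cbln1 and C1ql2 most, with 188 and 216 UMIs in all.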

Other observations

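Nuclei with several UMIs of a member were described by the gate markers furthest above the remaining nuclei. Of the 258 nuclei with 2 or more Cbln2 UMIs, 17 were in the Vip gate. More were in no gate (81), excitatory neurons of no subtype (33), unassigned interneurons (32) and Cux2 neurons (22). Htr3a, a serotonin receptor channel, was at 10.9 CPM in these 258 nuclei and 0.982 CPM in the others, 11.1 times, and Vip at 81.1 and 7.55 CPM, 10.8 times. In the 70 nuclei with 2 or more Cbln4 UMIs, Vtn led at 3.89 times, from 23 UMIs, and Sst, the somatostatin gene, followed at 219.5 against 67.0 CPM, 3.28 times.

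In the 1753 nuclei with 2 or more C1ql3 UMIs, the leading markers were Rspo2, a Wnt pathway activator (103 against 24.2 CPM, 4.26 times), and Neurod6, a transcription factor of excitatory neurons (53.5 against 16.2 CPM, 3.31 times). Depth was not matched between these nuclei and the others, and its part in these ratios was not tested. Crh, a stress peptide gene that was in no gate list, averaged 91.7 CPM in Vip interneurons, where Cbln2 was highest, and 7.60 CPM in all interneurons.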
